A study of Mus musculus with 6 samples.

Results

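The genes that make, remove and bind retinoic acid were compared between the anterior and posterior palate of the mouse. The set was chosen by function, with earlier results of these data known, and holds 10 genes of the 56691 gene identifiers counted. The synthesis genes are Rdh10, Aldh1a1, Aldh1a2 and Aldh1a3, the breakdown genes are Cyp26a1, Cyp26b1, Cyp26c1 and Dhrs3, and the binding protein genes are Crabp1 and Crabp2. All 10 were matched by symbol, and all 10 passed the low-count filter and were tested.

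Bulk RNA-seq was made from palatal shelves of C57BL/6J mice on embryonic day 14.0, when the shelves are being raised above the tongue. The front and back portions of the shelves were microdissected as separate groups, anterior palate (n = 3 libraries) and posterior palate (n = 3 libraries). Both groups carried the same strain background and stage, with no treatment or engineered allele named, so position along the shelf is the only labelled difference. Whether a library came from 1 embryo or a pool is not given in the sources used here, so p-values measure the spread between these libraries, which may be partly technical.

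Retinoic acid is a small signal made from vitamin A that enters the nucleus and switches genes through the receptors RAR and RXR. Retinol is first oxidised to retinal, mainly by RDH10, and DHRS3 runs this step backwards. Retinal dehydrogenases of the ALDH1A family then make retinoic acid, CYP26 enzymes oxidise it for removal, and CRABP proteins hold it in the cytoplasm. Too much or too little retinoic acid in the embryo is a known cause of cleft palate.

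In these shelves, Cyp26b1 was 3.51-fold higher in anterior than in posterior palate, Aldh1a3 2.27-fold and Dhrs3 1.63-fold, whereas Rdh10 was 1.61-fold higher in posterior palate. These 4 of 10 genes were called by edgeR's quasi-likelihood test, that is, their p adjusted over all genes was under 0.05. Of the called genes, 3 were higher in anterior and 1 in posterior. Among all 15673 genes tested, 7.38% were called, 2.57% higher in anterior and 4.80% higher in posterior. The fitted log2 fold change (posterior over anterior) was negative for 9 of the 10, with a median of -0.70 against a median of -0.0039 over all genes tested. By role, 1 of 4 synthesis genes was called in each direction (median -0.86), 2 of 4 breakdown genes were called, both higher in anterior (median -1.26), and neither binding protein gene was called (median -0.35). These counts and medians include Cyp26c1, which passed the low-count filter through its anterior libraries alone and had a fold change of -6.83. Without it, the breakdown genes had log2 fold changes of -1.81 (Cyp26b1), -0.71 (Dhrs3) and -0.68 (Cyp26a1).

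The promoters of the breakdown genes are shown because all 4 of these genes had negative fold changes and because Cyp26a1 is a classical retinoic acid target. Retinoic acid receptors bind pairs of a short half-site in the same orientation. The letters searched were AGGTCA, the consensus half-site, and its variants AGTTCA (as in the promoter of Cyp26a1), GGGTCA (a related form) and GGTTCA (as in the promoter of Rarb). Direct repeats of any pair of them with a spacer of 1, 2 or 5 bases were counted on both strands. The sequences are RefSeq promoters of GRCm38.p6, printed 5′ to 3′ on the gene's own strand and ended just before the first base of the GENCODE M21 gene, with half-sites in capitals.
Cyp26a1, chr19:37697558-37697797, plus strand: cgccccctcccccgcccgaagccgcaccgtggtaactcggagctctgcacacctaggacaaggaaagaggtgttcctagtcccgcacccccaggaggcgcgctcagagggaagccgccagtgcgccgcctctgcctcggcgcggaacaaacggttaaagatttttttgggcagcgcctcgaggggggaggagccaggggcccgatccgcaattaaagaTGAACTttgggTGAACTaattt
Cyp26b1, chr6:84593909-84594060, minus strand: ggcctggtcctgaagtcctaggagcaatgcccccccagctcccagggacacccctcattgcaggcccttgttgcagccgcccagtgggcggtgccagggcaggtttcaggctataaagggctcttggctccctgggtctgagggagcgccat
Cyp26c1, chr19:37685430-37685580, plus strand: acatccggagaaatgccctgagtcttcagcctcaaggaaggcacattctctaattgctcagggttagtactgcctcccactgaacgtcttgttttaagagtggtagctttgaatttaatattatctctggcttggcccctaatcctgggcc
Dhrs3, chr4:144892577-144892826, plus strand: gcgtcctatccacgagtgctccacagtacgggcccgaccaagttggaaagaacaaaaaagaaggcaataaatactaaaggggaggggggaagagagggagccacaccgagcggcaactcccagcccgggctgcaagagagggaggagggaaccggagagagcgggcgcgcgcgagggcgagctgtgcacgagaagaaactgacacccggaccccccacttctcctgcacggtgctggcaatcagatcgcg

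Of the 10 genes, 7 had promoter windows, and of these Cyp26a1 held such a repeat. The letters searched include the form known from its promoter, so the match follows from that choice and is given as a description. On the minus strand of its window the site reads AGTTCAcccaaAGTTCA, with a spacer of 5 bases, and lies from 32 to 16 bases before the RefSeq start. It appears in the printed strand as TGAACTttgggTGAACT. Repeats with a spacer of 5 bases occurred in 32 of 32851 promoters (0.0974%), and repeats with any of the 3 spacers in 193 (0.5875%). No match means that these letters were not in the window, and windows for Rdh10, Aldh1a3 and Crabp2 were not analysed here.

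Libraries held 11378736 to 15172733 counts on genes. Posterior replicates 2 and 3 stood apart from the other 4 libraries. Their shares of multimapped reads were 6.12% and 5.94%, against 8.45% to 8.77% elsewhere, and their shares of mitochondrial counts 0.973% and 1.14%, against 2.70% to 2.97%. Posterior replicate 1 differed from them by a chi-square per gene of 54.0 and 69.0, against 9.52 between these 2 libraries. Region labels held for Shox2 (386 and 11.7 mean CPM, TMM-normalized counts scaled to a common library size, in anterior and posterior) and Msx1 (204 and 1.15), the anterior regulators, and for Meox2 (7.81 and 192) and Tbx22 (1.49 and 36.0), the posterior ones. Markers of other cell types differed too. All 10 skeletal muscle markers were called higher in posterior palate (summed 9.62 to 16.4 CPM in anterior and 641 to 1143 CPM in posterior libraries). Of 8 mesenchyme markers, 7 had positive log2 fold changes and 5 were called higher in posterior, whereas Prrx1 was called lower. Of 5 chondrocyte markers tested, 2 were called, both higher in posterior (summed 307 to 402 CPM in anterior and 746 to 1452 CPM in posterior libraries). In bulk samples, fewer cells of a type and less RNA per cell cannot be told apart.

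Rdh10 (ENSMUSG00000025921, chr1:16105774-16133734, plus strand, here and below in GENCODE M21 on GRCm38) encodes the retinol dehydrogenase that starts retinoic acid synthesis in the embryo. Its anterior libraries had 21.4, 27.3 and 31.9 CPM and its posterior libraries 40.6, 46.9 and 41.9 CPM. Every posterior library was above every anterior one. The means were 26.9 ± 5.31 and 43.2 ± 3.32 CPM (SD, n = 3 each), a log2 fold change of 0.69 (SE 0.16, edgeR adjusted p = 0.0416). The call was close to the threshold. It was lost with a covariate that parts posterior replicates 2 and 3 from the other libraries, here called the library-group term (0.60, edgeR adjusted p = 0.129), and with the replicate number as a block (0.70, edgeR adjusted p = 0.0520). It was also lost without anterior replicate 1 or 2 or posterior replicate 2 or 3, although the log2 fold change stayed between 0.54 and 0.82 whichever library was left out. Summed mesenchyme markers moved the same way, from 9036 to 9748 CPM in anterior to 12200 to 18941 CPM in posterior libraries. Most of these sums came from Col1a1 (mean 4393 and 7876 CPM) and Col3a1 (3047 and 5608 CPM). Prrx1 was the 1 mesenchyme marker of 8 that was lower in posterior (1055 and 416 CPM). Chondrocyte and skeletal muscle markers moved the same way as Rdh10. The part of these markers in the Rdh10 difference was not tested.

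The 3 Aldh1a genes, whose enzymes oxidise retinal to retinoic acid, all had lower posterior means, and Aldh1a3 alone passed the test. Aldh1a3 (ENSMUSG00000015134, chr7:66390890-66427517, minus strand) had 11.1, 10.2 and 11.5 CPM in anterior and 4.56, 5.19 and 4.65 CPM in posterior libraries. The regions were well apart and replicates lay close together. The means were 10.9 ± 0.687 and 4.80 ± 0.342 CPM (SD, n = 3 each), a log2 fold change of -1.18 (SE 0.15, edgeR adjusted p = 0.00393), and the call held in all 10 alternative fits and all 6 fits that left out a library. The epithelial marker Trp63 also fell, by 0.65 on the log2 scale, and was the 1 of 10 epithelial markers called. The summed epithelial markers overlapped, at 1426 to 1555 CPM in anterior and 1018 to 1659 CPM in posterior libraries, and their part in the Aldh1a3 difference was not tested.

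Aldh1a2 (ENSMUSG00000013584, chr9:71215789-71296243, plus strand) encodes the main retinal dehydrogenase of early embryonic mesoderm and was the most abundant Aldh1a gene per length in every library. It had 54.4, 84.8 and 71.7 CPM in anterior and 14.6, 45.2 and 29.9 CPM in posterior libraries. No posterior library reached the lowest anterior one, but the posterior values spread widely. The means were 70.3 ± 15.2 and 29.9 ± 15.3 CPM (SD, n = 3 each), with a log2 fold change of -1.23 (SE 0.37) that did not pass (edgeR adjusted p = 0.0952). DESeq2 called it (-1.24, adjusted p = 0.00624), as did the replicate block (-1.34, edgeR adjusted p = 0.0158). With the library-group term, which leaves posterior replicate 1 to set the contrast with the anterior libraries, the fold change was -2.26 and stayed just short of the threshold (edgeR adjusted p = 0.0585).

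Aldh1a1 (ENSMUSG00000053279, chr19:20492715-20643465, plus strand), the retinal dehydrogenase best known from eye and liver, had 36.5, 28.5 and 26.8 CPM in anterior and 17.2, 27.2 and 19.4 CPM in posterior libraries. The regions overlapped through posterior replicate 2. The log2 fold change of -0.53 (SE 0.20) did not pass (edgeR adjusted p = 0.159). Reads shared with its close mouse paralog Aldh1a7 would not be counted where they map to several places, so its level is uncertain.

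**Figure D1:**
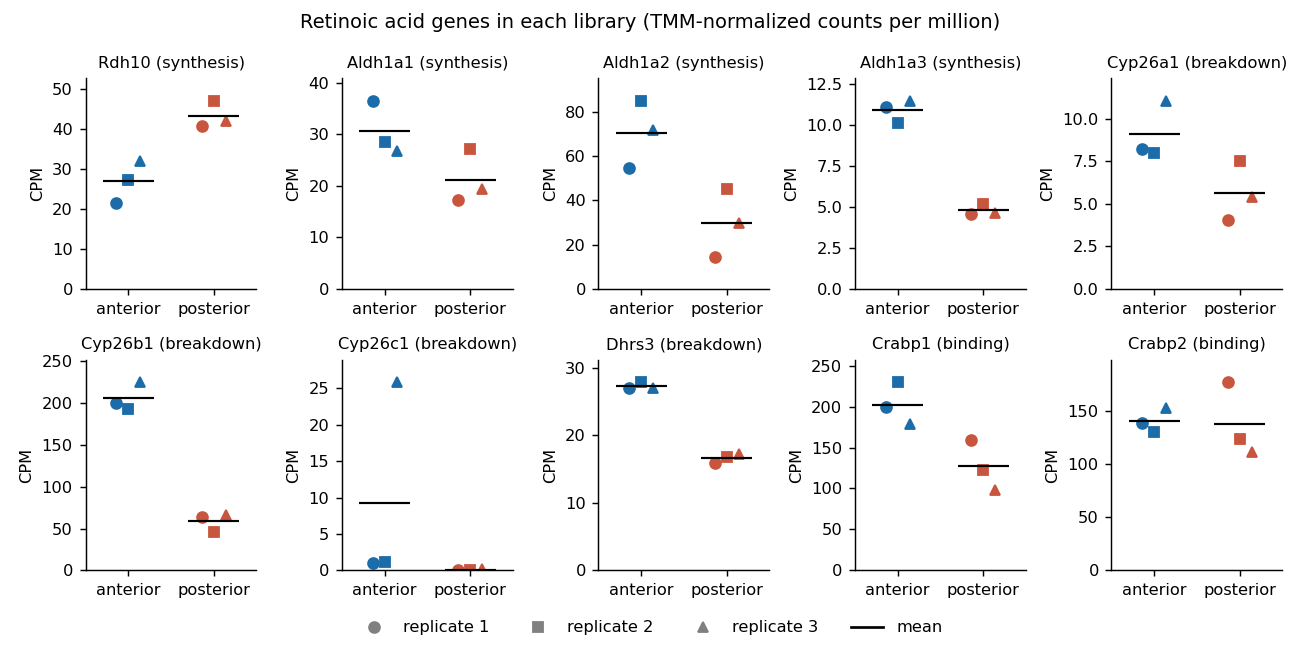
TMM-normalized CPM (vertical axes, each starting at 0) of the 10 genes in each anterior (blue) and posterior (red) library, with marker shapes for replicates and black lines for region means. Rdh10 lies higher in all 3 posterior libraries, Cyp26b1, Aldh1a3 and Dhrs3 lie lower in all of them, and 1 anterior library carries most of the Cyp26c1 signal.

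Among the breakdown genes, Cyp26b1 had the largest change that passed the test. Cyp26b1 (ENSMUSG00000063415, chr6:84571414-84593908, minus strand) encodes a retinoic acid hydroxylase needed for limb and skeletal patterning. It had 201, 193 and 225 CPM in anterior and 63.8, 46.0 and 66.5 CPM in posterior libraries. The lowest anterior library was far above the highest posterior one. The means were 206 ± 16.7 and 58.8 ± 11.1 CPM (SD, n = 3 each), a log2 fold change of -1.81 (SE 0.16, edgeR adjusted p = 0.000733), and it was called in all 10 alternative fits (-1.86 to -1.69) and all 6 fits without a library. Summed osteoblast markers ran from 1964 to 3544 CPM in anterior and from 294 to 1817 CPM in posterior libraries with none of 5 tested markers called. Ibsp alone ran from 1400 to 2687 CPM in anterior and from 17.9 to 1277 CPM in posterior libraries. Spp1 was the 1 tested osteoblast marker not lower in posterior (mean 3.87 and 4.18 CPM). The part of these markers in the Cyp26b1 difference was not tested.

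Dhrs3 (ENSMUSG00000066026, chr4:144892827-144928209, plus strand) encodes the reductase that turns retinal back into retinol. Its values were the tightest of the set, at 27.0, 27.9 and 27.0 CPM in anterior and 15.9, 16.9 and 17.3 CPM in posterior libraries. The regions did not overlap. The means were 27.3 ± 0.481 and 16.7 ± 0.716 CPM (SD, n = 3 each), a log2 fold change of -0.71 (SE 0.10, edgeR adjusted p = 0.00597) that also held in all 10 alternative fits and all 6 fits without a library.

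Cyp26a1 (ENSMUSG00000024987, chr19:37697798-37701536, plus strand), the hydroxylase whose promoter carries the repeat printed above, had 8.25, 7.98 and 11.1 CPM in anterior and 4.03, 7.50 and 5.41 CPM in posterior libraries. The regions were separated narrowly, with posterior replicate 2 just under anterior replicate 2. The log2 fold change of -0.68 (SE 0.26) did not pass (edgeR adjusted p = 0.155). With the library-group term it was -1.17 and passed (edgeR adjusted p = 0.0433).

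Cyp26c1 (ENSMUSG00000062432, chr19:37685581-37693398, plus strand) is the neighbour of Cyp26a1, ending 4399 bp before it starts. It had 13, 15 and 299 counts in anterior and 0, 1 and 2 counts in posterior libraries, or 0.984, 1.09 and 25.8 CPM against 0, 0.0721 and 0.137 CPM. Anterior replicate 3 was far above the other libraries, and the posterior libraries were at or under the limit of 3 counts that a count of 0 allows (0.205 to 0.259 CPM over the 6 libraries). The fitted log2 fold change of -6.83 (SE 1.92) did not pass (edgeR adjusted p = 0.0751). From summed counts, the anterior level was 118 times the posterior one with all libraries (95% exact interval 40.1 to 577, 327 against 3 counts) and 14.5 times with anterior replicates 1 and 2 alone (4.47 to 74.4, 28 against 3 counts). These intervals cover counting error only. Without anterior replicate 3 and without the low-count filter, a fit chosen after the values were seen, the log2 fold change was -3.70 (edgeR adjusted p = 0.00874).

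Anterior replicate 3 was also the highest anterior library for Cyp26a1 (11.1 CPM) and Cyp26b1 (225 CPM), but close to the other anterior libraries there. A search for genes at least 8-fold above every other library (on CPM from counts plus 0.5), chosen after the values were seen, was run among the genes that passed the low-count filter, which removes most genes seen in 1 library. It found 4 in anterior replicate 3 and 4 in posterior replicate 2. The 4 genes of anterior replicate 3 were the antisense transcript Dlx1as (34.3-fold), the transcription factor Egr3 (32.2-fold), Cyp26c1 and the glycosyltransferase Gcnt4 (8.38-fold).

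The binding protein genes were the most abundant of the set per kilobase of exon, and neither passed the test. Crabp1 (ENSMUSG00000032291, chr9:54764748-54773110, plus strand), known for strong expression in neural crest derivatives, had 200, 229 and 178 CPM in anterior and 160, 122 and 98.6 CPM in posterior libraries. The regions did not overlap. The means were 202 ± 25.8 and 127 ± 30.8 CPM (SD, n = 3 each), with a log2 fold change of -0.67 (SE 0.19) that missed the threshold (edgeR adjusted p = 0.0752). It passed without posterior replicate 1 (-0.87, edgeR adjusted p = 0.00231), in a fit that called 46.5% of all genes tested. It also passed with DESeq2 (-0.68, adjusted p = 0.0103), without the low-count filter (-0.68, edgeR adjusted p = 0.0183) and with a transcript length correction (-0.52, edgeR adjusted p = 0.0306). With the library-group term its log2 fold change was -0.34 (edgeR adjusted p = 0.343).

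Crabp2 (ENSMUSG00000004885, chr3:87948666-87953376, plus strand), which delivers retinoic acid to its nuclear receptor, had 139, 130 and 153 CPM in anterior and 177, 124 and 111 CPM in posterior libraries. Posterior replicate 1 was the highest and the other two posterior libraries the lowest of all 6. The means of 141 ± 11.6 and 137 ± 34.9 CPM (SD, n = 3 each) differed by less than the spread (log2 fold change -0.03, SE 0.18, edgeR adjusted p = 0.916). Its direction turned with the library: without posterior replicate 1 it was -0.25 (edgeR adjusted p = 0.0305), and with the library-group term 0.33 (edgeR adjusted p = 0.0830). The fit without posterior replicate 1 called 46.5% of all genes tested.

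**Figure D2:**
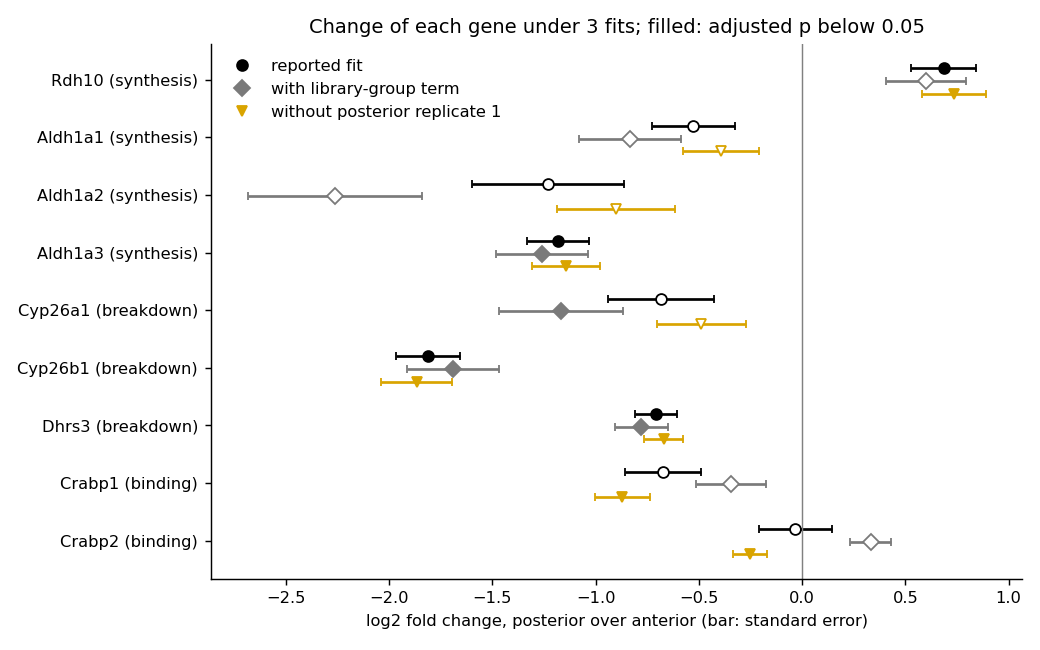
Log2 fold change (posterior over anterior, horizontal axis) of 9 of the genes in the reported fit (circles), with the library-group term (diamonds) and without posterior replicate 1 (triangles); bars are standard errors and filled markers passed an adjusted p of 0.05. Aldh1a3, Cyp26b1 and Dhrs3 are filled in all 3 fits, Crabp2 lies on both sides of 0, and Cyp26c1 is left out because its posterior libraries hold 3 counts in all. The fit without posterior replicate 1 called 46.5% of all genes tested.

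The posterior libraries differed among themselves. Posterior replicate 1 was the lowest posterior library for 7 genes (Rdh10, Aldh1a1, Aldh1a2, Aldh1a3, Cyp26a1, Cyp26c1 and Dhrs3) and the highest for Crabp1 and Crabp2. Posterior replicate 2 was the highest for Rdh10, the 3 Aldh1a genes and Cyp26a1. That library also had the most neuronal marker RNA, with 86.2 CPM of Tubb3 against 6.36 to 17.0 CPM in the other 5 libraries, and the part of this in the order was not tested. Library values of the regions did not overlap for 8 of the 10 genes, 7 of them higher in anterior, against 28.0% of all genes tested. The 8 include Cyp26c1, which the low-count filter admitted through its anterior libraries. For each of these 8 the two-sided exact permutation test gave p = 0.1, the smallest that 3 against 3 libraries allow, so this test cannot reach the threshold. It gave p = 0.2 for Aldh1a1 and p = 0.8 for Crabp2, again as an exact permutation test.

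Levels between genes were compared as CPM per kilobase of merged exon. In anterior palate the order of mean levels was Crabp1 (252), Crabp2 (106), Cyp26b1 (38.5), Aldh1a2 (31.1), Dhrs3 (9.33), Rdh10 (6.46), Aldh1a1 (6.20), Cyp26c1 (5.32), Cyp26a1 (4.59) and Aldh1a3 (2.37), all in CPM per kilobase. Cyp26b1 and Aldh1a2 overlapped between libraries there, and so did the neighbours from Rdh10 to Cyp26a1. The anterior Cyp26c1 mean rests on replicate 3 (14.8 CPM per kilobase), since replicates 1 and 2 had 0.563 and 0.623, below every Aldh1a3 library. In posterior palate the order was Crabp1 (158), Crabp2 (104), Aldh1a2 (13.2), Cyp26b1 (11.0), Rdh10 (10.4), Dhrs3 (5.70), Aldh1a1 (4.30), Cyp26a1 (2.85), Aldh1a3 (1.04) and Cyp26c1 (0.0399). Crabp1 and Crabp2 overlapped there, as did the neighbours from Aldh1a2 to Rdh10 and from Dhrs3 to Cyp26a1. Per kilobase, Dhrs3 thus stood above Rdh10 in anterior palate and below it in posterior palate. In CPM without length, the anterior means were close, at 27.3 for Dhrs3 and 26.9 for Rdh10.

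**Figure D3:**
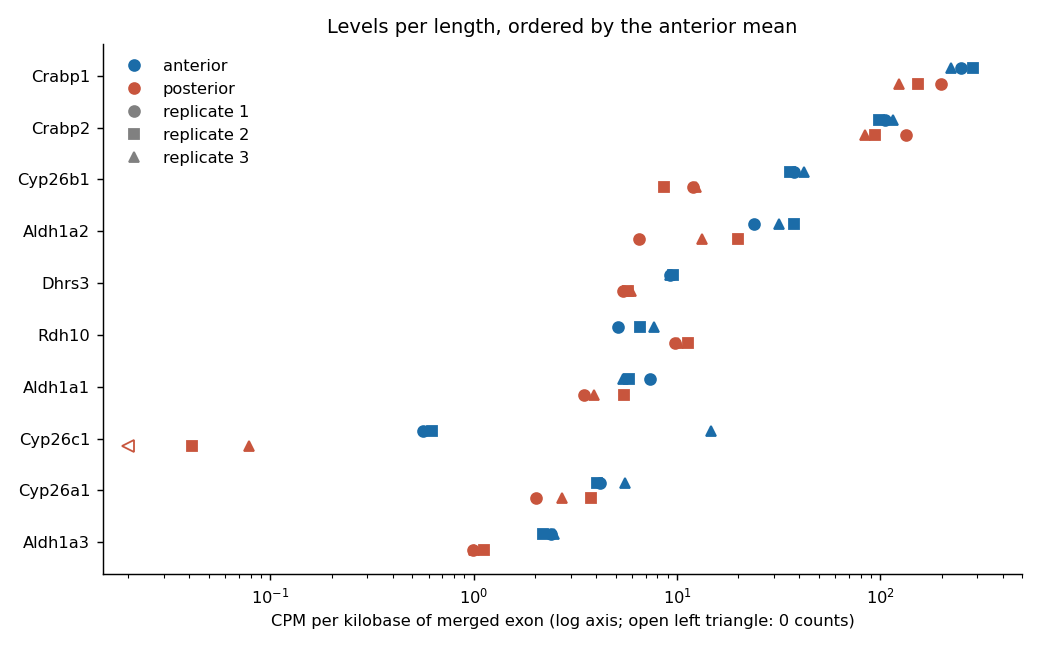
Level of each gene per transcript length (CPM per kilobase of merged exon, log axis) in each anterior (blue) and posterior (red) library, ordered by anterior mean, with marker shapes for replicates and an open triangle at the left for a count of 0. Crabp1 and Crabp2 lie above the other genes in both regions, and Cyp26c1 spans the widest range.

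Summed per length, the Cyp26 genes had 42.2, 40.7 and 62.4 CPM per kilobase in anterior and 14.0, 12.4 and 15.2 CPM per kilobase in posterior libraries, a mean ratio of 3.49. Cyp26c1 gave 14.8 of the 62.4 in anterior replicate 3, against 0.563 and 0.623 in replicates 1 and 2. The ratio of 3.49 thus rests partly on that library. The Aldh1a sum had 33.8, 45.4 and 39.6 CPM per kilobase in anterior and 10.9, 26.6 and 18.1 CPM per kilobase in posterior libraries, a mean ratio of 2.13. Both sums were separate between regions. The Crabp sum was 359 ± 23.6 and 262 ± 64.4 CPM per kilobase (SD, n = 3 each), a ratio of 1.37. Cyp26b1 made up 81.6% ± 12.3 of the anterior and 78.7% ± 8.47 of the posterior Cyp26 sum, and Aldh1a2 77.8% ± 6.01 and 69.0% ± 8.62 of the Aldh1a sum (SD, n = 3 each). By anterior library the Cyp26b1 share was 88.8%, 88.6% and 67.4%. Cyp26c1 held 1.33%, 1.53% and 23.7% of the sum in the same libraries. Crabp1 made up 70.2% ± 4.34 of the anterior and 60.4% ± 1.36 of the posterior Crabp sum.

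Ratios of genes within a library do not depend on how libraries are scaled to each other, and 8 were compared. The log2 ratio of Rdh10 to Dhrs3, whose enzymes run the same step in opposite directions, was -0.85, -0.54 and -0.27 in anterior and 0.84, 0.97 and 0.77 in posterior libraries. Taken per length, its sign differed between the regions in every library, and the mean difference was 1.41. The sign, unlike the difference, rests on the merged exon lengths (4160 bases for Rdh10 and 2927 for Dhrs3). In counts, anterior replicate 3 had 370 for Rdh10 and 313 for Dhrs3. The ratio of Crabp1 to Crabp2 was 1.24, 1.54 and 0.94 in anterior and 0.57, 0.70 and 0.55 in posterior libraries, a difference of -0.63. The regions did not overlap in that ratio.

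The ratios of Aldh1a1 to Aldh1a3 (mean 1.37 in anterior and 2.02 in posterior), Cyp26a1 to Cyp26b1 (-3.08 and -1.97) and Cyp26c1 to Cyp26b1 (-4.44 and -7.74) were also separate. For Cyp26c1 to Cyp26b1, anterior replicate 2 had -5.81 and replicate 1 a lower value, against -1.51 in replicate 3, and the difference of -3.30 became -1.84 without replicate 3. Posterior replicate 1 had 0 Cyp26c1 counts, so its ratio of -9.12 is set by the added 0.5 counts. For these 5 pairs the two-sided exact permutation test gave p = 0.1, the smallest possible, and 0.16 adjusted over the 8 pairs. The ratio of summed Aldh1a to summed Cyp26 was -0.32, 0.16 and -0.66 in anterior and -0.35, 1.10 and 0.25 in posterior libraries, and overlapped (exact permutation p = 0.3, adjusted 0.343). Overlap was also seen for Aldh1a1 to Aldh1a2 (exact permutation p = 0.3, adjusted 0.343) and for Aldh1a2 to Aldh1a3, which differed by -0.17 (exact permutation p = 0.9).

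**Figure D4:**
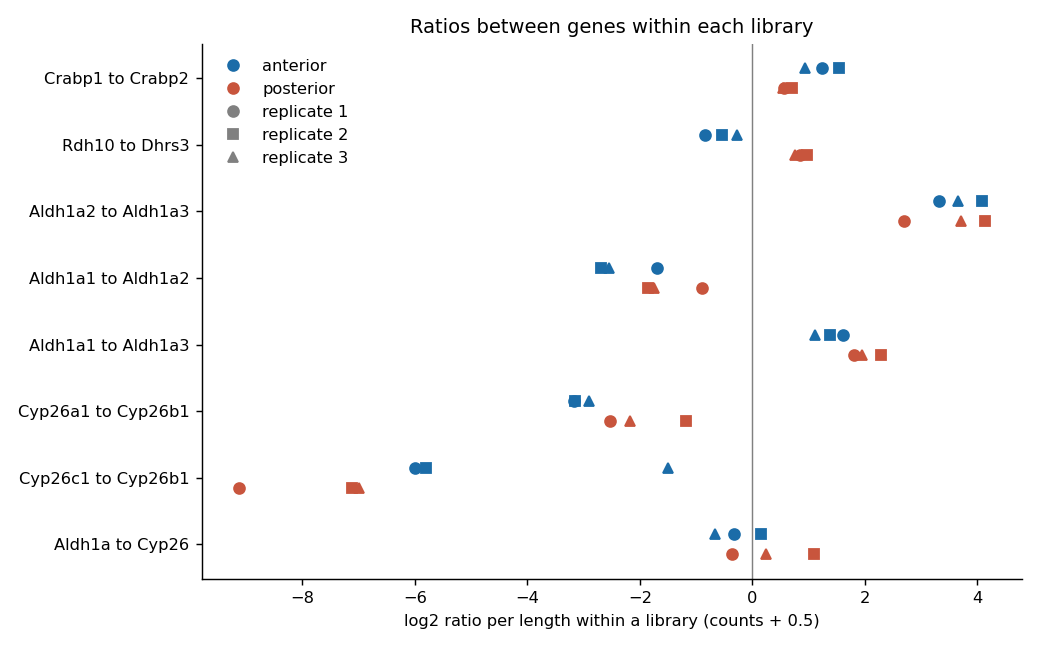
Log2 ratios of levels per length between genes within each library (horizontal axis, counts plus 0.5), for anterior (blue) and posterior (red) libraries with marker shapes for replicates. Rdh10 to Dhrs3 lies below 0 in the 3 anterior and above 0 in the 3 posterior libraries, and Aldh1a to Cyp26 overlaps.

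Other genes of the pathway were taken from 5 lists. Among the other retinol and retinal dehydrogenases, 10 of 17 genes were tested and 2 were called, both higher in anterior palate. Adh7, a retinol-oxidising alcohol dehydrogenase of epithelia, had 17.9, 13.1 and 13.6 CPM in anterior and 2.54, 4.90 and 2.40 CPM in posterior libraries (log2 fold change -2.18, SE 0.30, edgeR adjusted p = 0.00505). Adh1, its relative with activity on retinol, had 17.0, 8.92 and 6.82 CPM in anterior and 2.39, 3.32 and 2.05 CPM in posterior libraries (-2.08, SE 0.38, edgeR adjusted p = 0.0178). Neither gene overlapped between the regions. Of 10 epithelial markers, 8 had negative and 2 positive log2 fold changes, and Trp63 alone was called. Krt5 had the lowest value (-0.93, edgeR adjusted p = 0.0640). The part of these markers in the Adh7 difference was not tested. Adh7 was called in every alternative fit and without each library, whereas Adh1 lost its call with the library-group term (-2.19, edgeR adjusted p = 0.126), and without anterior replicate 2 (-2.20, edgeR adjusted p = 0.0502), posterior replicate 2 (-2.29, edgeR adjusted p = 0.0522) or posterior replicate 3 (-1.93, edgeR adjusted p = 0.0717). Without posterior replicate 1, 4 genes of the list were called, in a fit that called 46.5% of all genes tested. The list's median was -0.20. In retinol uptake, transport and storage, 8 genes were considered, 2 were tested and neither passed the test. Stra6, the membrane receptor for retinol uptake, was the more abundant of the tested pair, with 14.8, 13.9 and 13.5 CPM in anterior and 14.3, 9.37 and 9.58 CPM in posterior libraries, which overlapped (edgeR adjusted p = 0.289). Without posterior replicate 1, 2 genes of that list were called, again against 46.5%.

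Among 7 receptor and delivery genes, Rxrg was called, higher in posterior palate. This receptor, known from skeletal muscle and brain, had 13, 5 and 6 counts in anterior and 93, 81 and 155 in posterior libraries, and passed the low-count filter through the posterior ones. Its levels were 0.984, 0.363 and 0.518 CPM in anterior and 6.95, 5.84 and 10.6 CPM in posterior libraries (log2 fold change 3.63, SE 0.41, edgeR adjusted p = 0.00239). The skeletal muscle markers moved with it over the same libraries, and their part in its difference was not tested. It was not tested where 10 counts were asked of every library, which left the list with no call. Without posterior replicate 1, 4 of the 7 genes were called, again against 46.5%. Among 8 corepressors and coactivators, Ncoa1, a receptor coactivator, was called with 42.1, 39.5 and 40.5 CPM in anterior and 52.4, 67.6 and 73.8 CPM in posterior libraries (0.67, SE 0.14, edgeR adjusted p = 0.0275). Its call was lost with the replicate block (0.65, edgeR adjusted p = 0.0612) and in 5 of the 6 fits without a library (0.56 to 0.69, edgeR adjusted p from 0.0822 to 0.136), and held without posterior replicate 1, where 7 genes of the list and 46.5% of all genes tested were called.

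Of 14 genes considered that are known to respond to retinoic acid in various tissues, 9 were tested, 1 was called higher in anterior and 2 higher in posterior, with a median of 0.39. Tgm2, a transglutaminase, had 53.5, 43.2 and 49.6 CPM in anterior and 23.8, 22.5 and 17.4 CPM in posterior libraries (-1.20, SE 0.15, edgeR adjusted p = 0.00364). Hic1, a repressor of mesenchymal progenitors, had 7.80, 9.72 and 12.5 CPM against 31.3, 48.2 and 46.4 CPM (2.07, SE 0.23, edgeR adjusted p = 0.00229). The regions did not overlap for either gene. Rarres1, with 5, 6 and 5 anterior and 25, 25 and 28 posterior counts, passed the low-count filter through the posterior libraries alone. It was at 0.379 to 0.435 CPM in anterior and 1.80 to 1.92 CPM in posterior (2.14, SE 0.29, edgeR adjusted p = 0.0048). Rarb, named here for its promoter repeat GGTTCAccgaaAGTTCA and after its values were seen, had 9.47, 12.0 and 13.4 CPM in anterior and 10.4, 20.7 and 14.6 CPM in posterior libraries, which overlapped (edgeR adjusted p = 0.368). Without posterior replicate 1, 6 genes of the list were called, against 46.5% of all genes tested.

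**Figure D5:**
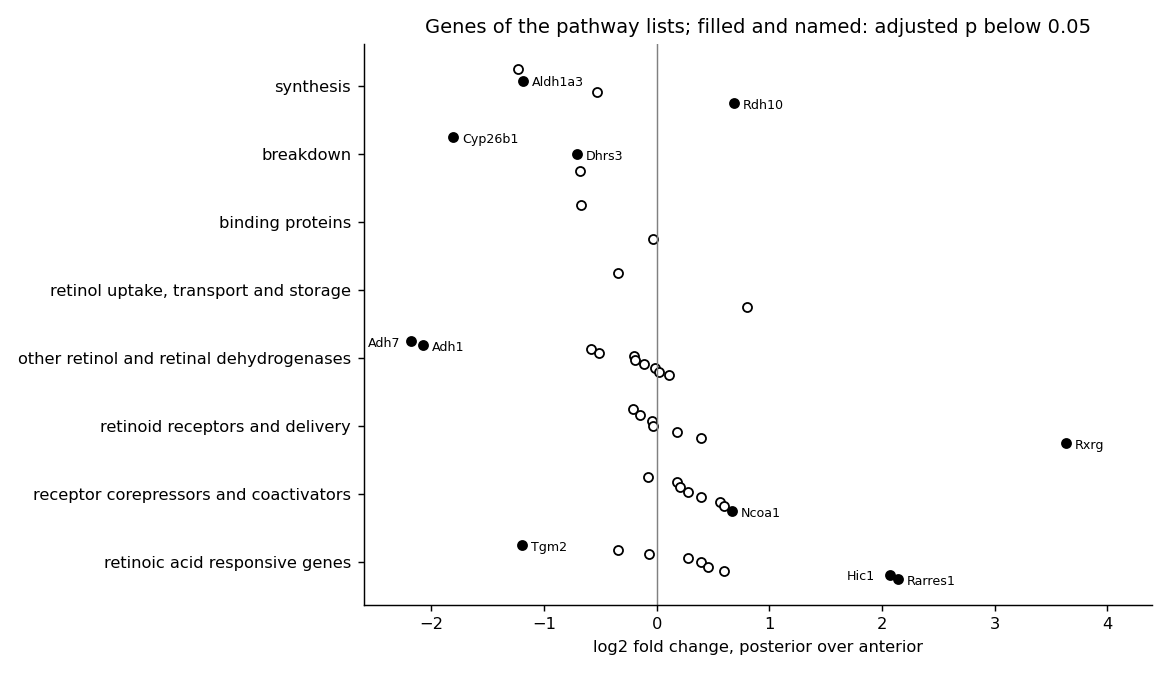
Log2 fold change (posterior over anterior) of tested genes in the 3 groups of the set and the 5 other pathway lists, with genes passing an adjusted p of 0.05 filled and named, and Cyp26c1 left out because its posterior libraries hold 3 counts in all. The called genes lie on both sides of 0 within the responsive genes, and all plotted breakdown genes lie below 0.

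For each of the 4 called genes, the 3 genes with the most similar profile were found by Pearson correlation of log2 CPM over the 6 libraries, as a description, since any 2 genes that differ between the regions correlate here. Rdh10 was most like Samd5 (r = 0.997), Pggt1b (0.994) and Trim35 (0.992). Aldh1a3 was most like Aldoc (0.998), Alx1 (0.997) and Afap1l2 (0.996), of which Alx1 is a craniofacial homeobox gene. Cyp26b1 was most like Alg8 (0.998), Gm43426 (0.997) and Tulp1 (0.995), and Dhrs3 was most like Cpxm2, Svopl and Wnt2 (each 0.999).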

How the data were processed

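Palate RNA was sequenced in bulk in 6 libraries, 3 per region, grouped by the labels' titles. The files deposited by the authors hold raw counts for each gene, of which the reverse-stranded counts were used because they exceeded the other strand 19.0- to 23.1-fold. The submitters' processing notes name mm10, HISAT2, StringTie and DESeq2 1.30.1, whereas the files are laid out as STAR writes gene counts, and the annotation version is not given in the sources used here. Of 56691 identifiers, 52073 were paired with a GENCODE M21 symbol after dropping versions, of which 35 had the same version. Lengths and positions are those of M21 and may differ from the annotation behind the counts.

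The low-count filter kept genes reaching 10 counts in 3 libraries or more. The test was edgeR 4.0.16 under R 4.3.3 (TMM, quasi-likelihood test with region as the only term, Benjamini-Hochberg adjustment over 15673 genes, threshold 0.05). The script was tested on simulated data. Libraries of a region differed beyond sampling noise (chi-square per gene 3.48 to 69.0), and unmapped reads were 2.71% to 4.65%. A count of 0 allows 3 counts, and depth limits cover counting error only. Alternatives were DESeq2 1.42.0, RLE, library size only, limma-voom (limma 3.58.1), other filters, unstranded counts, the replicate block, a library-group term, a length correction, a pseudocount of 1 in ratios, and leaving out each library. Same-numbered libraries did not deviate together, so numbers were not taken as pairs.

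All members were named, with genes of the pathway lists that passed the threshold, or else the most abundant of a list. A few list genes are not reported here, and the counts leave them out. The members and lists were chosen with earlier results of these data known.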

Additional observations from a re-analysis of the deposited data

Results flagged for a closer look

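Opposite-strand counts were outside the comparisons above and exceeded the limit of 3 counts in 4 genes. Their medians over the 6 libraries were 9 for Cyp26b1, 4.5 for Cyp26c1, 13.5 for Crabp1 and 5.5 for Crabp2. They came to 0.482%, 9.09%, 0.639% and 0.432% of the sense counts of these genes, and no other gene overlaps their exons in M21. For Cyp26c1 they were 8, 5 and 7 in anterior and 3, 4 and 3 in posterior libraries, so posterior sense counts of 0, 1 and 2 were below them, and anterior replicate 3, with 299 sense counts, did not stand out.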

How the results depend on the processing

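Aldh1a3, Cyp26b1 and Dhrs3 kept their direction and call in all alternatives, including the 6 fits without a library. Rdh10 lost its call with library size only (0.64), the replicate block (0.70), the library-group term (0.60) and posterior replicate 1 alone against the anterior libraries (0.60), and ranged from 0.54 to 0.82 without 1 library. Posterior replicate 1 alone, like the fit without anterior replicate 3 and without the low-count filter, was chosen after seeing the data.

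With posterior replicate 1 alone the posterior arm is 1 library, assumed to vary like the anterior ones, and the library-group term also leaves that library alone in its contrast. Calls were gained by Aldh1a2 with DESeq2 (-1.24), the replicate block (-1.34) and posterior replicate 1 alone (-2.26), by Aldh1a1 with posterior replicate 1 alone (-0.84), and by Cyp26a1 with the library-group term (-1.17) and posterior replicate 1 alone (-1.17). Cyp26c1 gained one with the replicate block (-6.73) and without anterior replicate 3 and the filter (-3.70), and DESeq2 gave it no adjusted p. Crabp1 gained one with DESeq2 (-0.68), no low-count filter (-0.68), the length correction (-0.52) and without anterior replicate 3 and the filter (-0.76), and ranged from -0.87 (called, without posterior replicate 1) to -0.52 without 1 library. Crabp2 turned direction with the library-group term (0.33), the length correction (0.10), posterior replicate 1 alone (0.33) and without anterior replicate 3 and the filter (0.029), and ranged from -0.25 to 0.10 without 1 library. The cause was not tested.

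Genes called numbered 1978 with DESeq2 (637 higher in anterior, 1341 in posterior) and 833 with the replicate block (239 higher in anterior). Without 1 library they ranged from 496 to 7141 (139 to 3267 higher in anterior, 313 to 3874 in posterior), the highest without posterior replicate 1, after which the remaining posterior libraries are the 2 that stand apart. Members called higher in anterior numbered 5 with DESeq2, 5 with the replicate block, 6 with posterior replicate 1 alone (a fit that called 8.08% of all genes), 5 without anterior replicate 3 and the filter (3.46%), and 3 to 5 without 1 library, the 5 coming without posterior replicate 1 (46.5%). Members called higher in posterior numbered 0 with library size only, the replicate block and the library-group term, and 0 to 1 without 1 library. Of all 15673 genes tested, 693, 594 and 720 were called higher in posterior in the first 3 of these fits. Genes called in the 5 other lists numbered 7, against 4 to 20 without 1 library (20 without posterior replicate 1, 4 without posterior replicate 2 or 3). Anterior calls were 34.9% of all calls, from 28% (without anterior replicate 2) to 45.7% (without posterior replicate 1) without 1 library, 28.7% with the replicate block and 49% with posterior replicate 1 alone.

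With the library-group term Stra6 turned to 0.021 and Rarb to -0.16, and with posterior replicate 1 alone to 0.019 and -0.16, whereas both were called without posterior replicate 1 (-0.56 and 0.61). Posterior replicate 1 alone also ended the calls of Adh1 (-2.19) and Ncoa1 (0.36).

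The difference in the Aldh1a2 to Aldh1a3 ratio turned to 0.03 without anterior replicate 2 and 0.23 without posterior replicate 1, and ranged from -0.48 to 0.23. With unstranded counts, the mean CPM of Aldh1a3 in posterior was 5.24, that of Cyp26c1 in posterior 0.318 and that of Dhrs3 in anterior 28.3. The deviations of same-numbered libraries correlated at -0.05, 0.07 and 0.04, and anterior replicates 2 and 3, but not 1, correlated best with their own number. Cyp26c1 had 3 posterior counts in all, and each region had 3 libraries.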
